A study of Mus musculus with 4 samples.

Results

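The DNAJ or HSP40 proteins are cochaperones of HSP70. Their genes were taken as every name on the array that began with Dnaja, Dnajb or Dnajc and a digit, which gave 45 genes of 30175 gene names and 72 probes of 39429. Of these genes, 4 belonged to class A, 13 to class B and 28 to class C. Each gene was given 1 value, from the probe with the highest mean signal over the arrays.

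All DNAJ proteins carry a J domain, which binds HSP70 and stimulates its hydrolysis of ATP, so that HSP70 closes on an unfolded client. Class A proteins have the J domain, a glycine and phenylalanine-rich stretch and a zinc finger-like region as in bacterial DnaJ, class B proteins lack the zinc finger-like region, and class C proteins share only the J domain. Class A and B members of the cytosol deliver a broad range of unfolded proteins to HSP70, whereas many class C members bring HSP70 to 1 place or task, such as the mitochondrial import motor, the ribosome or clathrin-coated vesicles.

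The cells were NIH-3T3:Per2-Luc, a mouse embryonic fibroblast line that carries a luciferase reporter of the clock gene Per2. Cells received a cOS-pulse (critical oxidative stress, 5 mM H2O2 for 10 min) and RNA was taken 4 h, 20 h or 32 h later. The control received 0 mM H2O2 with a change to fresh medium and is labelled 4 h, so at 20 h and 32 h the time since the medium change differed as well and cannot be told apart from the pulse. There was 1 array per condition, all 4 on 1 slide, so no test was possible and no p-value is given. The comparisons with the control all share that 1 array.

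Levels are given as log2 signals with the 75th percentile of each array at 0, and differences as log2 ratios. The error of a ratio is that of the scanner for both spots, and it does not cover the spread between cultures. A ratio was a bound where only 1 of both arrays had the probe well above background. Between 52.7% and 59.1% of the probes were well above background on each array. The 10 fibroblast markers were above background on all 4 arrays, with summed levels between 672 and 753 (75th percentile of an array = 1), and the 3 muscle markers were above background on none. The median ratio of the fibroblast markers was -0.44 at 4 h, -0.34 at 20 h and -0.27 at 32 h, with 2, 3 and 0 of 10 at least 2-fold lower. Of 4 leukocyte markers, 3 were above background on every array and Ptprc on none, and the list summed to 21.4, 32.7, 11.8 and 12.2 over the control, 4 h, 20 h and 32 h arrays. Of 5 epithelial markers, 1 or 2 were above background, without Epcam and Cdh1, and the list summed to between 0.596 and 1.29. Of 4 endothelial markers, 2 or 3 were above background, without Tek, and the list summed to between 3.22 and 4.29. Of 3 neural markers, 1 to 3 were above background, and the list summed to between 0.291 and 0.414. The part of other cell types in the results was not tested.

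The promoters of 37 of the 45 genes were listed by RefSeq (GRCm38.p6, 250 bases before to 50 after each transcription start). Those of 4 genes are printed as examples, for a motif of the heat shock or ER stress response or for the highest ratio. Other genes with a motif are only named. A heat shock element, the binding site of heat shock factors, was searched on both strands as GAANNTTC followed by any 2 bases and GAA. It stood in 0.6% of 32851 promoters and in those of 0.66% of genes. Among the DNAJ genes it stood in that of Dnajb6 alone, 1 of 37 (2.7%). It lay at positions -46 to -34 from a start on the plus strand of chr5:29735648-29735947. Its 3 units are in capitals.
Dnajb6: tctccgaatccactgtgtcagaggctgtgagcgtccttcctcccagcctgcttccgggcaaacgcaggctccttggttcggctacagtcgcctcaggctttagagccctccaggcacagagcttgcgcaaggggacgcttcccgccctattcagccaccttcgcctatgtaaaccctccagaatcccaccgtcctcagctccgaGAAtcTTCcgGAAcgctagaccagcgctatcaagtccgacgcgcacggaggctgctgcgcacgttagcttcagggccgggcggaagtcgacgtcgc
The shorter GAANNTTC, which is contained in the longer element, stood in 7.9% of all promoters and in those of 9% of genes. Among the 37 DNAJ genes it stood in those of 5 (14%), namely Dnaja1, Dnaja4, Dnajb6, Dnajc5g and Dnajc27. The pair with its units in the reverse order, which the longer element also contains, was not counted. A promoter of Dnajb4, on the minus strand of chr3:152193796-152194095, held that reverse order, so these 5 genes are not all that hold a pair. A promoter of Dnaja4, on the plus strand of chr9:54699309-54699608, held GAANNTTC at positions -90 to -83 and -52 to -45, shown in capitals.
Dnaja4: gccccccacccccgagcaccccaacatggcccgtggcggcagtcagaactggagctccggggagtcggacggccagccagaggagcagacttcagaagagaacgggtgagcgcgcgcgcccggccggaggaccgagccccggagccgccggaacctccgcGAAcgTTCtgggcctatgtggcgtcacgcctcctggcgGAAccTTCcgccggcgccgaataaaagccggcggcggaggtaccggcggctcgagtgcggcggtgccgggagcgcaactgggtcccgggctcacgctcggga
The ER stress response element, here CCAAT and CCACG 9 bases apart, stood in 0.12% of all promoters and in those of 0.14% of genes. Among the DNAJ genes it stood in that of Dnajc3 alone (2.7%). It lay at positions -105 to -87 on the plus strand of chr14:118937682-118937981, with both parts in capitals.
Dnajc3: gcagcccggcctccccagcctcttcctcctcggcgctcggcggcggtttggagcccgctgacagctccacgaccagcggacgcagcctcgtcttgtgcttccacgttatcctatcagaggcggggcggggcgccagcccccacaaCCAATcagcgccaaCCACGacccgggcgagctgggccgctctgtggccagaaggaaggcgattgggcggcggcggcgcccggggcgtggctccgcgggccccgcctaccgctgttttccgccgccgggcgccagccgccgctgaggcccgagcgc
The unfolded protein response element TGACGTGG stood in 0.68% of all promoters and in those of 0.71% of genes. Among the DNAJ genes it stood in that of Dnajc25 (2.7%), at positions -49 to -42. The promoter of Dnajb9, on the minus strand of chr12:44210019-44210318, held none of these elements on either strand.
Dnajb9: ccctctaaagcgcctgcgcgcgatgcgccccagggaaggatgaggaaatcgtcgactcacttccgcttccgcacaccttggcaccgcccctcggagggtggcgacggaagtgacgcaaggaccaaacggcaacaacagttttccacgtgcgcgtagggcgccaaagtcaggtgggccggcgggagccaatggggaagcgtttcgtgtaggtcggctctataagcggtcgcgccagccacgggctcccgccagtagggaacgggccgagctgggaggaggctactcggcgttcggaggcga
These matches describe the letters in the windows, and binding was not measured.

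Of the 45 genes, 39 were well above background on at least 1 array, which was 4 of class A, 10 of class B and 25 of class C. The other 6, Dnajb3, Dnajb7, Dnajb13, Dnajc5b, Dnajc5g and Dnajc6, were not above background on any array, and no ratio was taken for them. Dnajb3, Dnajb7 and Dnajb13 are known from testis, and Dnajc6 (auxilin) uncoats clathrin-coated vesicles, mainly in neurons. The count above background was 38 in the control, 38 at 4 h, 39 at 20 h and 37 at 32 h.

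At 4 h after the cOS-pulse, the cytosolic J proteins Dnajb6, Dnajb4 and Dnaja2 and the ER protein Dnajb9 exceeded the control by 2-fold or more, and Dnaja4, Dnajc12 and Dnajc28 were at least 2-fold lower. The 4 higher genes were 10.3% of the 39 with a ratio, beside 11.1% of all gene names, and the 3 lower genes were 7.69%, beside 8.26% of all gene names. The family as a whole was thus called about as often as any gene. Its median ratio was -0.08 and that of all gene names 0.22, and 13 of the 39 genes (33.3%) lay above the median of all.

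The class medians differed at 4 h, while the classes overlapped. Ratios ran from -1.19 to 1.12 in class A, -0.71 to 2.12 in class B and -2.12 to 0.90 in class C. The median ratio was 0.13 in class A, with 2 of 4 genes above the median of all gene names, and it lay below 0 under 4 of the 5 other scalings. It was 0.56 in class B, with 6 of 10 above. It was -0.14 in class C, with 5 of 25 above (20%). Relative to all gene names, class B was 0.30 to 0.33 higher and class C 0.32 to 0.41 lower under 6 ways of scaling. Class A was 0.09 to 0.13 lower. All of these but quantile normalization shift a whole array by 1 constant or leave it, so these differences were nearly fixed in advance. Other settings could move them. With normexp background correction they were 0.25 for class B, -0.29 for class C and -0.09 for class A. Without a filter on background they were 0.41, -0.25 and 0.04. Scaling moved the median of all gene names itself by between -0.12 and -0.40. With it, the share of 2-fold calls over all gene names that were higher went from 57.3% to between 26% and 46.4%.

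**Figure D1:**
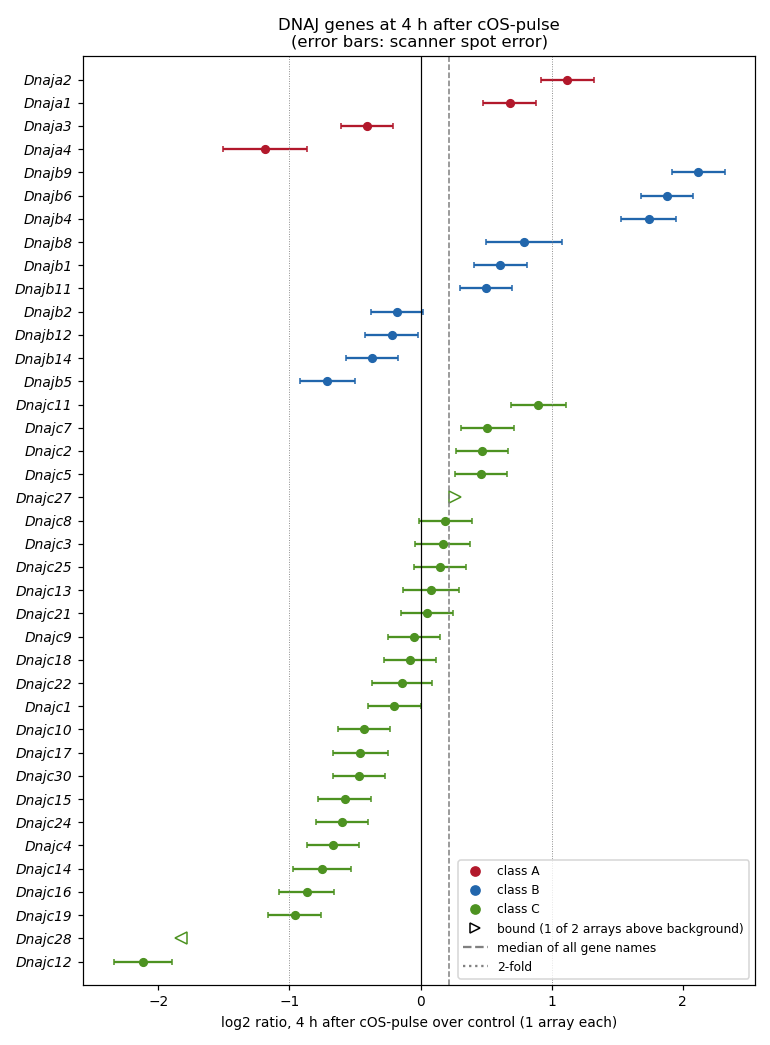
Log2 ratio of each DNAJ gene at 4 h over the control (horizontal axis), ordered within class A (red), B (blue) and C (green), with the scanner's spot error as bars, bounds as open triangles, the median of all gene names (0.22) dashed and 2-fold dotted. Class B reaches from -0.71 to 2.12, and most class C genes lie left of the dashed line.

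**Figure D2:**
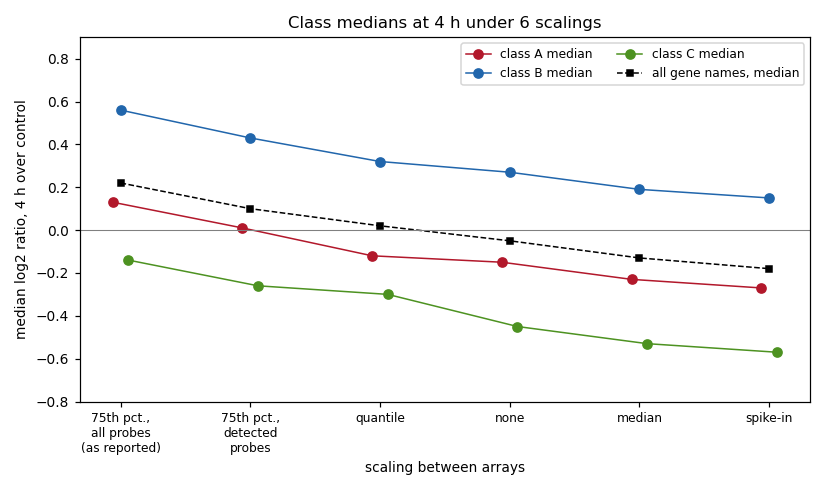
Median log2 ratio at 4 h over the control of class A, B and C and of all gene names (vertical axis) under 6 scalings between arrays (horizontal axis). Most of these scalings shift a whole array by 1 constant, so the lines run nearly parallel by construction. They go from 0.56 to 0.15 for class B and from -0.14 to -0.57 for class C, while class A crosses 0.

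Among the general cytosolic and nuclear J proteins, 6 of 9 lay above the median of all gene names at 4 h, and their own median was 0.61. Dnajb6, which keeps polyglutamine and other aggregation-prone proteins soluble, had levels of 2.55 in the control, 4.42 at 4 h, 2.92 at 20 h and 2.81 at 32 h. Its 4 h array stood above the other three, with a ratio of 1.88 ± 0.20 (spot error), or 3.67-fold. Probes annotated to another variant of Dnajb6 gave 0.63 and 0.56, which is under 2-fold. Dnajb4, a relative of the heat-inducible Dnajb1, had levels of -2.07, -0.33, -1.49 and -1.67 in the same order. It was highest at 4 h, with a ratio of 1.74 ± 0.21 (3.33-fold), and was still 0.58 and 0.40 above the control at 20 h and 32 h.

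Dnaja2, a constitutive class A cochaperone of the cytosol, had levels of 2.41, 3.53, 2.14 and 2.21. The 4 h array was again the highest, with a ratio of 1.12 ± 0.20 (2.17-fold). Under the 5 other scalings the ratio was below 2-fold, with 0.72 as the lowest. A second probe of Dnaja2 gave 0.65 ± 0.20 (1.56-fold) at 4 h, so the 2-fold call depended on the probe as well. Dnaja1, the farnesylated partner of the constitutive HSP70, had levels of 4.94, 5.62, 4.95 and 4.99, and its ratio at 4 h was 0.68 ± 0.20. Dnajb1, the main heat-inducible J protein of the cytosol, had levels of 3.12, 3.73, 3.16 and 3.21, with a ratio of 0.61 ± 0.20. Dnajc7, which binds both HSP70 and HSP90, was similar, with levels of 3.25, 3.76, 3.41 and 3.37 and a ratio of 0.51 ± 0.20. On their brightest probes, all 4 of these genes were within 0.27 of the control at 20 h and 32 h.

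The remaining 3 genes of this group were lower at 4 h. Dnaja4 had levels of -3.29, -4.48, -3.83 and -3.73 and a ratio of -1.19 ± 0.32. It was lowest at 4 h and below the control at every time, with ratios of -0.54 at 20 h and -0.44 at 32 h. Its signal was faint, and with normexp background correction the ratio was -0.40. Dnajb5, a close relative of Dnajb1 and Dnajb4, had levels of 0.14, -0.57, 0.30 and 0.48 and a ratio of -0.71 ± 0.21 at 4 h, so the 4 h array was the lowest. Dnajb2, which takes clients to the proteasome and is known from neurons, had a ratio of -0.18 ± 0.20.

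Of the 4 J genes known to be heat shock genes, Dnaja1, Dnaja4, Dnajb1 and Dnajb4, 3 lay above the median of all gene names at 4 h and Dnaja4 lay below it. Their median was 0.64. Dnajb6, whose promoter held the longer heat shock element, is not in that list.

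In the ER, J proteins pass clients to the lumenal HSP70 BiP (Hspa5) for folding or for degradation. The median ratio of the 11 ER members at 4 h was -0.20, with 2 of 11 above the median of all gene names. Dnajb9 (ERdj4), which takes part in the degradation of misfolded ER proteins, had levels of 0.76 in the control, 2.88 at 4 h, 0.51 at 20 h and 0.78 at 32 h. The 4 h array stood apart with a ratio of 2.12 ± 0.20 (4.36-fold), and the other three arrays lay within 0.27 of each other. A second probe of Dnajb9 gave 2.61.

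The other ER members that bind BiP in the lumen had smaller ratios. Dnajb11 (ERdj3), which binds unfolded chains in the lumen, had levels of 3.20, 3.70, 3.23 and 3.39 and a ratio of 0.50 ± 0.20. Dnajc3 (P58IPK), which also restrains the stress kinase PERK, had a ratio of 0.17 ± 0.21, and this turned below 0 under other scalings. Dnajc10 (ERdj5), a disulfide reductase, had a ratio of -0.43 ± 0.20. Dnajc1 (ERdj1), a membrane protein that meets the ribosome, had a ratio of -0.20 ± 0.20. The 4 genes known from the unfolded protein response, Dnajb9, Dnajb11, Dnajc3 and Dnajc10, had a median of 0.33, with 2 of 4 above the median of all gene names.

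Dnajb12 and Dnajb14 are ER membrane proteins with the J domain on the cytosolic side. Dnajb12 had levels of 0.50, 0.28, 0.67 and 0.56, with a ratio of -0.22 ± 0.20 at 4 h. Dnajb14 had levels of 1.77, 1.40, 1.91 and 1.74, with a ratio of -0.37 ± 0.20. For both the 4 h array was the lowest. Dnajc16 had levels of -1.25, -2.12, -1.17 and -1.22 and a ratio of -0.87 ± 0.21. Dnajc18, a relative of Dnajb12 and Dnajb14, and Dnajc25 had ratios of -0.08 ± 0.20 and 0.15 ± 0.20 at 4 h. A second probe of Dnajc25, with a control level of 0.34 beside 0.53, gave 0.75 ± 0.20. Dnajc18 was 0.44 ± 0.20 above the control at 20 h. The brightest probe of Dnajc14 had levels of -2.03, -2.77, -2.84 and -2.77, with ratios of -0.75 ± 0.22, -0.82 ± 0.22 and -0.74 ± 0.22 at 4 h, 20 h and 32 h. A fainter probe of the same transcript had ratios of 0.37 ± 0.34 at 20 h and 0.48 ± 0.36 at 32 h, so the probes of Dnajc14 lay on opposite sides of the control at these times.

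Of the 7 mitochondrial members, 6 were below the control at 4 h, beside 6718 of 18506 gene names. Their median ratio was -0.58. Dnajc19 and Dnajc15, which belong to the motor that pulls proteins into the matrix, had ratios of -0.96 ± 0.20 and -0.58 ± 0.20. The levels of Dnajc19 were 2.16, 1.20, 1.91 and 1.89, lowest at 4 h. Dnaja3 (Tid1), the class A protein of the matrix, had levels of 2.46, 2.05, 2.33 and 2.37 and a ratio of -0.41 ± 0.20. Dnajc4 and Dnajc30 had ratios of -0.67 ± 0.20 and -0.47 ± 0.20. Dnajc28 had levels of -3.11, -5.86, -3.08 and -3.20 and was not well above background at 4 h, so it was at least 3.55-fold lower there. With normexp background correction its ratio was -0.81.

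Dnajc11, an outer membrane protein linked to the cristae-organizing complex, was the mitochondrial member that was higher at 4 h. Its levels were -0.85, 0.05, -0.92 and -0.92, and the ratio was 0.90 ± 0.21. This probe was spotted 10 times on each array, and the ratios of the 10 spots at 4 h ran from 0.83 to 0.95 (SD 0.04). They ran from -0.17 to 0.00 at 20 h and from -0.13 to 0.05 at 32 h. The 10 spots share 1 labelled RNA, so they measure the array and not the cultures.

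**Figure D3:**
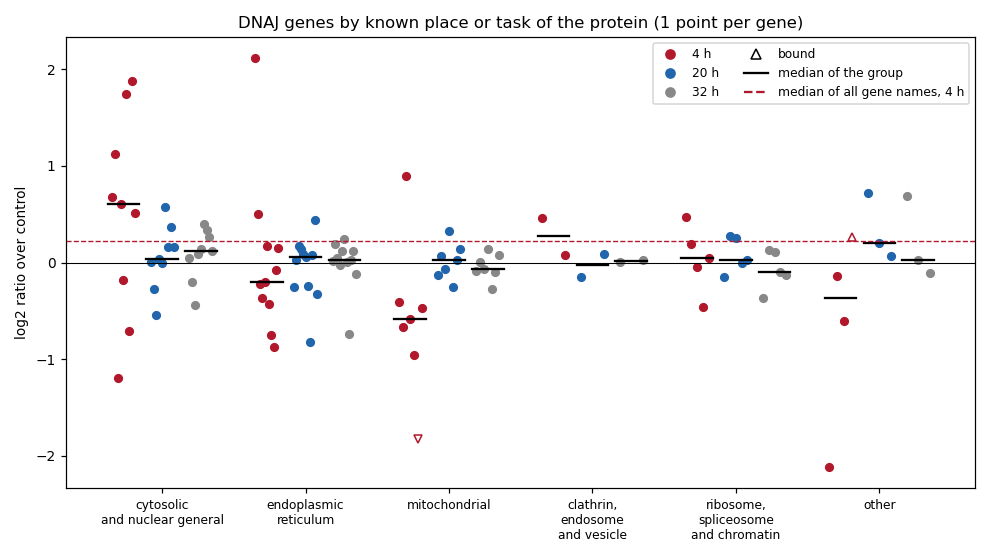
Log2 ratios over the control at 4 h (red), 20 h (blue) and 32 h (grey), 1 point per gene, for DNAJ genes grouped by the known place or task of the protein (testis genes not drawn); bounds are open triangles, black bars are group medians and the dashed line is the median of all gene names at 4 h (0.22). At 4 h the drawn medians run from 0.61 for the cytosolic and nuclear group to -0.58 for the mitochondrial group, and at 20 h and 32 h most points lie near 0.

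The brightest probes of the members tied to vesicles, ribosomes, splicing and chromatin had ratios between -0.46 and 0.47 at 4 h. Dnajc5, the cysteine string protein of secretory vesicles, had a ratio of 0.46 ± 0.20 at 4 h on its brightest probe and 1.76 and 1.49 on others. Dnajc13, an endosomal protein, had a ratio of 0.08 ± 0.21. Dnajc2, which works with HSP70 at the ribosome exit, had levels of 0.52, 0.99, 0.36 and 0.14 and a ratio of 0.47 ± 0.20, while a second probe gave a bound of -1.59. Dnajc8 and Dnajc17, both linked to the spliceosome, had ratios of 0.19 ± 0.20 and -0.46 ± 0.21. Dnajc9, a histone chaperone, and Dnajc21, a ribosome biogenesis factor, had ratios of -0.05 ± 0.20 and 0.05 ± 0.20. Of these, the directions of Dnajc8, Dnajc13 and Dnajc21 turned under other scalings, as did those of Dnajc3 and Dnajc25.

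Dnajc12, which binds the aromatic amino acid hydroxylases, had levels of -1.03 in the control, -3.15 at 4 h, -0.31 at 20 h and -0.34 at 32 h. It was 4.35-fold lower at 4 h (-2.12 ± 0.22) and above the control later, by 0.72 ± 0.21 at 20 h and 0.69 ± 0.21 at 32 h, with these directions under all 6 scalings. Dnajc24, needed for the diphthamide modification of elongation factor 2, had a ratio of -0.60 ± 0.20 at 4 h, and Dnajc22 had -0.14 ± 0.23. Dnajc27 passed the background on the 4 h array but not on the control array, which gave at least 1.2-fold higher.

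**Figure D4:**
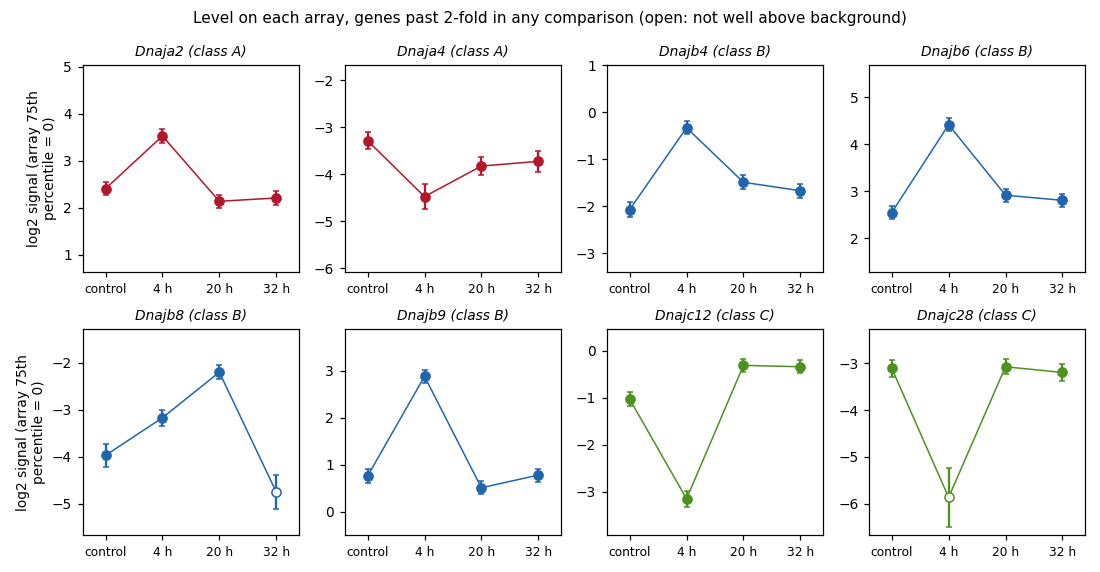
Level of each DNAJ gene that was at least 2-fold different in any comparison (vertical axis, log2 signal with the array's 75th percentile at 0) on the 4 arrays (horizontal axis), with the spot error as bars and open points where the probe was not well above background. Dnaja2, Dnajb4, Dnajb6 and Dnajb9 peak at 4 h, Dnaja4, Dnajc12 and Dnajc28 are lowest there, and Dnajb8 is highest at 20 h.

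Of the 37 genes with a measured ratio at 4 h, 12 were higher and 13 lower than the control by more than 2 spot errors, beside 30.8% and 21.3% of all gene names. In class B it was 6 higher and 1 lower of 10. In class C it was 4 higher and 10 lower of 23. At 20 h, 4 were higher and 2 lower of 38 (10.5% and 5.26%), beside 6.94% and 8.49% of all gene names. At 32 h, 1 was higher and 1 lower of 37 (2.7% each), beside 7.76% and 8.86%.

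At 20 h, Dnajb8 was the 1 gene at least 2-fold higher than the control, beside 1.46% of all gene names, and no DNAJ gene was 2-fold lower, beside 3.56%. Dnajb8, known from testis and as a suppressor of polyglutamine aggregation, had faint levels of -3.97 in the control, -3.17 at 4 h and -2.20 at 20 h. At 32 h its level was -4.75, which was not well above background. The ratio was 0.79 ± 0.29 at 4 h and 1.77 ± 0.28 at 20 h, or 3.41-fold, on a single probe. The median of the family was 0.06 at 20 h, with 25 of 38 genes above 0, beside 8564 of 16963 gene names. Without scaling, 37 of 39 were above 0, but the median of all gene names was then itself 0.33, and 26 of 39 lay above it.

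At 32 h, no DNAJ gene was 2-fold higher, beside 2.24% of all gene names, or 2-fold lower, beside 2.77%. The family median was 0.03. Between 20 h and 32 h, Dnajb8 was at least 5.79-fold higher at 20 h, beside 0.947% of all gene names. No gene was 2-fold lower, beside 2.11%. None of the 37 measured ratios between these times was over 2 spot errors, beside 1.16% higher and 2.47% lower over all gene names.

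Genes with several probes gave a further view of the 4 h values. For 17 genes, 23 probes besides the brightest had a ratio at 4 h, and 20 of them had the same sign as the brightest. Those with the opposite sign belonged to Dnajb2 (0.23), Dnajc2 (at least 1.59 lower on the log2 scale) and Dnajc19 (0.08). Of the 23 probes, 8 from 6 genes lay more than 2-fold from the brightest. For 3 of these genes the first 30 of 60 bases of a pair of probes are printed, on the strand of the probe, to show which stretches gave the different values.

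For Dnajb6, a pair of overlapping probes annotated to transcript variant 1, at chr5:30112855-30112911 and chr5:30112861-30112920 (mm9, the build of the array's annotation), both gave 1.88. Those annotated to variant 2 gave 0.63 and 0.56, the latter at chr5:30080099-30080158.
Dnajb6, ratio 1.88: caaggaggaatgtattttagtgctactgac
Dnajb6, ratio 0.56: agtccatttgagtttggcttcacattccgg
All 4 probes were above the control at 4 h, but the 2-fold call depended on the probe. The probes annotated to variant 2 may lie in sequence that both variants share, so no value of either variant is taken from them.

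For Dnajc5, the brightest probe, at chr2:181286885-181286944, gave 0.46, whereas the probes at chr2:181284236-181284295 and chr2:181283486-181283545 gave 1.76 and 1.49.
Dnajc5, ratio 0.46: gaactagttccaggacagccaggactacac
Dnajc5, ratio 1.76: gtcaatccttgatacatgaagtgcgtagca
All 3 are annotated to the same transcript, so for this gene the 2-fold call depended on the probe. The brightest probe shared a run of 16 bases with 45 promoters and 7 array probes of other genes. The other 2 probes shared none, and their levels were -0.59, 1.16, -0.36 and -0.53 and -1.77, -0.29, -1.44 and -1.50, highest at 4 h on both. The level and ratio of the brightest probe are therefore uncertain as a measure of Dnajc5.

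For Dnajb11, the brightest probe, at chr16:22872067-22872126, gave 0.50, and a probe annotated to another transcript at chr16:22879612-22879671 passed the background on the 4 h array but not on the control array, with a log2 ratio of at least 3.02. Levels of that probe were -6.87, -1.74, -4.72 and -4.52, not well above background in the control and at 32 h. Whether the transcripts differed was not tested.
Dnajb11, ratio 0.50: tctcagaggatgcccgagcaaaggaaacca
Dnajb11, ratio at least 3.02: gctacaagggaggttaaaggttaaagcgtt
The second probe of Dnajb14 gave -1.41 beside -0.37, that of Dnajc2 gave a bound of -1.59 beside 0.47, and that of Dnajc19 gave 0.08 beside -0.96. The second probe of Dnajc19 shared a run of 16 bases with 103 array probes of other genes and is uncertain for that reason. Apart from it and the brightest probe of Dnajc5, each probe of the family shared one with at most 1 array probe of another gene. RefSeq lists pseudogenes of Dnaja1, Dnajb6 and Dnajc19, so the values of these 3 genes may hold signal from near-identical copies.

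**Figure D5:**
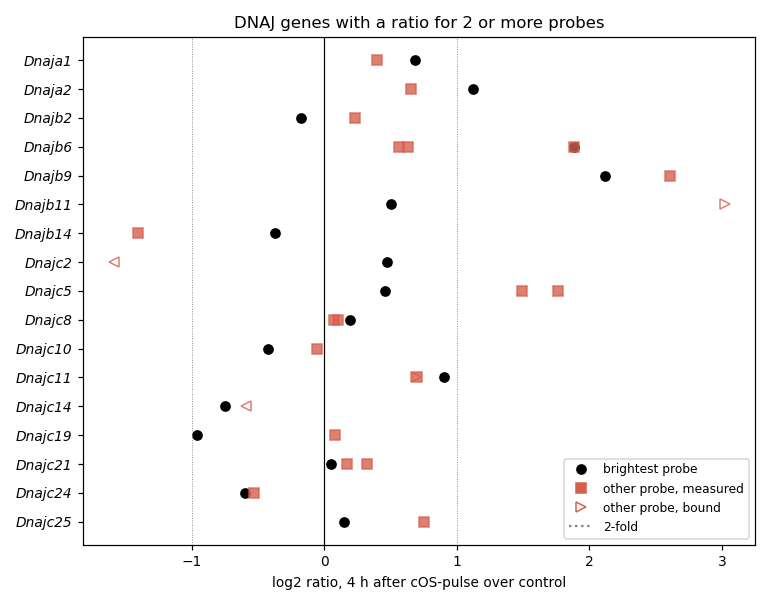
Log2 ratio at 4 h over the control (horizontal axis) of the brightest probe (black circle) and of the other probes (red squares, open triangles for bounds) of the 17 DNAJ genes with a ratio for 2 or more probes; dotted lines mark 2-fold. Dnajb9 has both probes past 2-fold, while Dnajb6, Dnajc5, Dnajb11, Dnajb14, Dnajc2 and Dnajc19 have probes more than 2-fold apart.

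The partners of the DNAJ proteins were described from lists. Of 14 HSP70 and HSP110 genes on the array, 12 had a ratio at 4 h, with a median of 0.37. Of these, 3 were at least 2-fold higher (25%, beside 11.1% of all gene names) and 0 lower (beside 8.26%). The higher genes included Hspa5 (BiP), the ER partner of Dnajb9, at 1.37 ± 0.20, and Hspa4, an HSP110 that recharges HSP70, at 1.24 ± 0.20. Hspa14 and Hspa2 were lowest, at -0.68 ± 0.20 and -0.50 ± 0.21. Hspa5 was highest at 4 h as well, with levels of 5.87, 7.24, 5.52 and 5.95.

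Of 13 nucleotide exchange factors and other HSP70 cochaperones, 0 were 2-fold higher and 1, Bag4 (-1.02 ± 0.23), was 2-fold lower (7.69%), beside 11.1% and 8.26% of all gene names, with a median of 0.31. Grpel2, a mitochondrial exchange factor, was at 0.85 ± 0.21, and St13, which stabilizes the client-bound HSP70, was at 0.76 ± 0.20. The 3 J proteins listed under other names had a median of 0.23. Sec63, the J protein of the ER translocon, was at 0.83 ± 0.20, and Hscb, which serves iron-sulfur cluster assembly in mitochondria, was at -0.71 ± 0.20, with Gak, which uncoats clathrin-coated vesicles, at 0.23 ± 0.20 between them. The medians of the 3 lists of partners at 4 h minus that of all gene names were 0.15, 0.09 and 0.00, while spike-in scaling moved the median of all gene names by -0.40, more than any of the 3 medians lay above 0. At 20 h and 32 h, no gene of these 3 lists was 2-fold higher or lower, beside 1.46% and 3.56% of all gene names at 20 h and 2.24% and 2.77% at 32 h.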

How the data were processed

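Total RNA of each condition was labelled with Cy3 and hybridised to 1 one-color Agilent mouse array, and the spot intensities deposited by the authors were made with Feature Extraction 10.7.3.1, background-subtracted. The deposited value table is the same intensity divided by 1 constant per array. The log2 intensity was averaged over the unflagged spots of a probe (125 to 161 spots flagged, 0 saturated). Each array's 75th percentile was then set to 0. A probe was well above background when at least 50% of its spots were. Where 1 array was, the ratio was a bound, for which the dim array counted at its own signal or at the weakest one passing the background there, whichever was more. A gene took its brightest probe, and called means at least 2-fold. Genes at least 2-fold different in any comparison, and the 3 furthest each way at 4 h in each class, were named in full. Members and lists were chosen with earlier results of these data known. Some withheld items are not reported here. The SAM test named in the methods was not run, as there was 1 array per condition and the pairs are not stated.

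The 13 alternatives tried were 5 scalings, normexp with offset 50, 3 settings of detection and flags, the median over probes, the deposited table, and thresholds of 1.5-fold and 3-fold; spike-in scaling without 1 of 8 probes was added after seeing the data. The array's precision is limited by the number of arrays. Runs of 16 bases shared with other genes were sought on both strands after the values were seen. The steps were tested on simulated data. Python 3.11.15, numpy 2.4.6, pandas 2.3.3, R 4.3.3 and limma 3.58.1 were used.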

Additional observations from a re-analysis of the deposited data

Results flagged for a closer look

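Dnajc12 lay on opposite sides of the control at different times, with log2 ratios of -2.12 at 4 h, 0.72 at 20 h and 0.69 at 32 h, and the difference was not tested.

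Probes that were not used for a gene's value were more than 2-fold higher at 4 h for Dnajb11 (a bound of 3.02) and for Dnajc5 (1.76 and 1.49), where the brightest probes gave 0.50 and 0.46.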

How the results depend on the processing

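With 1 array per condition the scanner's error says nothing of the spread between cultures, faint probes depend on the background correction, and replicates could not be left out. No paired analysis was possible because each condition had 1 array. Of the counts and medians under these alternatives, 268 kept within the spread and 36 moved. No gene past 2-fold changed sign, whereas medians of class A and class B did. That of class A turned at 4 h under several scalings. Without scaling it turned to 0.13 at 20 h, 0.03 at 32 h and 0.10 between 20 h and 32 h. It was 0.01 at 32 h with spike-in scaling. Between 20 h and 32 h it was 0.02 with median scaling or spike-in scaling without 1 probe. There, class B was -0.05 without a filter or with both arrays above background, and -0.03 with the median over probes. At 4 h, the count of higher genes was 8 at 1.5-fold, and that of lower genes 9 at 1.5-fold, 8 with median scaling, 9 with spike-in scaling (8 without 1 of the 8 spike-in probes), 6 without scaling and 1 with normexp, in which Dnaja4 and Dnajc28 were under 2-fold. Of all gene names, 4524 were higher and 3009 lower at 1.5-fold. Lower gene names numbered 2762 with median scaling, 2955 with spike-in scaling (2933 without 1 probe), 2409 without scaling and 932 with normexp, beside 1528 as reported. The median of the family at 4 h was -0.47 with median scaling, -0.51 with spike-in scaling (also without 1 probe) and -0.39 without scaling. In the order of median, quantile, spike-in, no scaling and spike-in without 1 probe, class A was -0.23, -0.12, -0.27, -0.15 and -0.26, and class B 0.19, 0.32, 0.15, 0.27 and 0.16. Class C was -0.53, -0.57, -0.45 and -0.57 with the same scalings apart from quantile. At 20 h, 2 genes were higher without scaling and 2 at 1.5-fold, beside 587 and 776 of all gene names. Without a filter on background 1 was lower, and 1 at 1.5-fold, beside 1751 and 1322 of all gene names. Without scaling the medians at 20 h were 0.39 for the family, 0.13 for class A, 0.48 for class B and 0.40 for class C. At 32 h, 1 gene was higher and 2 were lower at 1.5-fold, beside 1017 and 1204 of all gene names. Between 20 h and 32 h, 0 genes were higher when both arrays had to be above background, beside 25 of all gene names. The directions of 33 of 39 genes at 4 h were the same under all 5 other scalings (Dnajc27 had no ratio under some, and 5 turned), and of 26 and 27 of 38 at 20 h and 32 h. Apart from the construction of each setting, the cause of these moves was not tested.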
